A study of Saccharomyces cerevisiae with 21 samples.

Results

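The genes described here encode the proteins that mark and license origins of replication in the budding yeast Saccharomyces cerevisiae: the 6 subunits of the origin recognition complex (ORC1, ORC2, ORC3, ORC4, ORC5 and ORC6) and the 2 loading factors CDC6 and TAH11, the latter encoding yeast Cdt1. They were chosen by name, as 8 of the 7126 loci in the deposited table, and all 8 passed the minimum of 1 FPKM in every fit. The study followed one culture after release from G1 arrest. It was sampled every 10 min up to 200 min, which gave 21 RNA libraries, 1 per time and none replicated. All cells were of the BF264-15D background, mating type MATa, with bar1 replaced by hphMX4 and an arg4 mutation. Each B-type cyclin gene was disrupted by a marker: clb1 by URA3, clb2 by LEU2, clb3 by TRP1, clb4 by HIS2, clb5 by ARG4 and clb6 by ADE1. A CLB1 copy on the GAL1 promoter, marked with LEU2, kept the cells growing in galactose and is repressed in dextrose. Cells were arrested with alpha-factor mating pheromone (30 ng/ml for 160 min), then released at 30 °C into dextrose medium, so effects of leaving the arrest and of changing the sugar cannot be told apart.

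ORC is a ring-shaped ATPase complex that sits on origin DNA through most of the yeast cell cycle. In G1, Cdc6 joins it and Cdt1 brings the Mcm2-7 helicase, and loading of that helicase onto DNA is the licensing step. B-type cyclins with the kinase Cdc28 then fire the origins and also block new licensing, by phosphorylating ORC subunits, by marking Cdc6 for degradation through the SCF ubiquitin ligase with Cdc4, and by driving Cdt1 and free Mcm2-7 from the nucleus. In wild-type yeast CDC6 and the MCM genes are known for transcripts that rise between mitosis and G1, whereas ORC transcripts are known to vary little.

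Levels are given in FPKM, which corrects for the length of a transcript and the size of its library, so genes can be compared. The summed FPKM of a library was lowest at 180 min (1212671) and highest at 0 min (1911174), and a comparison of all 210 library pairs found 0 identical. Among the altered genes CLB1 was at 293 FPKM at the start and 90.4 at the last time, CLB4 was listed at 0 in every library, and BAR1 lay between 1.34 and 3.18. The other disrupted cyclin genes were not listed at 0: CLB2 lay between 38.1 and 93.3, CLB3 between 20.1 and 32.2, CLB5 between 22.2 and 80.4 and CLB6 between 1.84 and 160 FPKM, and which part of each locus gave these values was not tested. The 6 MATa markers, of which BAR1 is disrupted in this strain, had a summed level of 89470 FPKM in the 0 min library and a low of 2666 in the 180 min library. Most of both sums came from MFA1 (34816 and 640 FPKM) and MFA2 (41687 and 1329), which stood at 5001 and 5294 at 190 min. All 6 markers were highest at 0 min. The 4 MATalpha markers summed to between 49.5 and 86.0 FPKM, mostly from SAG1, with the defining pheromone genes MF(ALPHA)1 between 0.154 and 1.14 and MF(ALPHA)2 between 0.468 and 20.6, its highest values being 20.6 at 0 min and 8.66 at 10 min, and the 8 meiotic markers summed to between 49.4 and 91.4. In these bulk libraries fewer cells of a type and less RNA per cell cannot be told apart.

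The promoters of CDC6 and of the 2 MCM genes that fell after the first pulse, all highest at 10 min, and that of TAH11, highest at 80 min, are shown to set the regulatory letters beside the time courses. Each is the 300 bases before the start codon in build R64, read 5′ to 3′ on the gene's strand. CDC6 lies at chrX:69038-69337 on the plus strand, MCM7 at chrII:625472-625771 on the plus strand, MCM5 at chrXII:691255-691554 on the plus strand and TAH11 at chrX:521748-522047 on the plus strand. Capitals mark matches on either strand to the MCB, the letters ACGCGT bound by the G1/S factor MBF, and to the Mcm1 box. The Mcm1 box is here a 10-letter search pattern for sites of Mcm1, which acts in genes of the mitosis to G1 interval.
CDC6: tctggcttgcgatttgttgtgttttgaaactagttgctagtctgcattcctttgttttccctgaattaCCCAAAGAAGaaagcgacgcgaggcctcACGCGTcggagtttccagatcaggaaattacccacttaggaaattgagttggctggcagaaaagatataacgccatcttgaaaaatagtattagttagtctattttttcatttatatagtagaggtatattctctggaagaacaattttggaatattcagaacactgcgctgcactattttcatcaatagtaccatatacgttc
MCM7: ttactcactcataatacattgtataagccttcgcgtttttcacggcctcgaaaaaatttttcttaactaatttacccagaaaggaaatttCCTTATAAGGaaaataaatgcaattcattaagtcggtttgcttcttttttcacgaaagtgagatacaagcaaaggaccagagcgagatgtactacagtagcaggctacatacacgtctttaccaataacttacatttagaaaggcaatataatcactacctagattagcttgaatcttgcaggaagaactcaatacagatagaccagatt
MCM5: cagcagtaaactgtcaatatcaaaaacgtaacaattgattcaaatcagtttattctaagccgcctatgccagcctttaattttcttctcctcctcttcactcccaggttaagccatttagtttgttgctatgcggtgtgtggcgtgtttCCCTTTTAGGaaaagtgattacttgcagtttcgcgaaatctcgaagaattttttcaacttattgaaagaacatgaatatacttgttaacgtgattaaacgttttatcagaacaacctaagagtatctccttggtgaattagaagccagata
TAH11: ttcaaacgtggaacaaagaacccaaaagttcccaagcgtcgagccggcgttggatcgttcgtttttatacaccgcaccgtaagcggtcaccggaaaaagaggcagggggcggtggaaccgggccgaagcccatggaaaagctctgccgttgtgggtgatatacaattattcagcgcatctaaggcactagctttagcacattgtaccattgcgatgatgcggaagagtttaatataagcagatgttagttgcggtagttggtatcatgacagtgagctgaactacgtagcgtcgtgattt

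In CDC6 the match to the Mcm1 box pattern lies 232 to 223 bases before the start codon. The MCB of CDC6 lies 204 to 199 bases before it. Nearer the start codon, the letters cccacttagg differ from the Mcm1 box pattern at a single letter, so they were neither marked nor counted. The Mcm1 box of MCM7 lies at 210 to 201 bases and that of MCM5 at 151 to 142 bases. CDC6 was the single member of the 8 with an MCB in this window, against 3.48% of 6001 promoters of protein-coding genes. An Mcm1 box was found in 2 of the 8 members (CDC6 and ORC3) and in 5 of the 6 MCM genes, against 18.2% of all promoters. MCM4, also highest at 10 min, had neither an MCB nor an Mcm1 box in this window. Other letters searched were the SCB (CGCGAAA or CACGAAA; 1 member, ORC6; 8.33% of promoters), the Ste12 site (TGAAACA; 1 member, ORC3; 7.2%) and the forkhead site (GTAAACA; 2 members, ORC3 and ORC6; 7%). The core of the heat shock element (GAANNTTC or TTCNNGAA) was in 3 members, CDC6, ORC1 and ORC4, and in 5 of the 6 MCM genes, as many as held the Mcm1 box, against 22.4%. No listed letters were found in this window of TAH11, ORC2 or ORC5. In a window of 600 bases the Mcm1 box was in all 6 MCM genes and 3 of the 8 members, against 35.6% of promoters. The MCB was there in 1 MCM gene and 2 members, against 6.33%. A match is a description of letters and not a site of binding.

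CDC6 (YJL194W, chromosome X, 69338 to 70879), the ATPase that joins ORC to load the helicase, had the widest range of the 8 genes. Its FPKM in the 7 libraries of 0 to 60 min were 3.88, 54.6, 25.1, 8.78, 5.97, 5.14 and 4.43. In the libraries of 70 to 130 min they were 6.09, 7.08, 8.91, 9.96, 9.96, 14.1 and 13.6, and in those of 140 to 200 min 15.5, 15.1, 18.2, 17.2, 19.6, 18.5 and 16.8. So a single library at 10 min held the top of a brief pulse, and a slower climb from 60 to 180 min reached a level between those of the 20 and 30 min libraries.

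The step from 0 to 10 min was 14.1-fold for CDC6, or 3.51 on the log2(FPKM + 1) scale. It was the 16th largest rise of 6085 loci, and the 5th largest of the 5194 genes of at least 300 bp with a mean of at least 5 FPKM. With 1 library at each time the step has no test. Of all loci 4.73% were at least 2-fold higher at 10 min than at 0 min and 5.67% at least 2-fold lower. With every library rescaled to one sum of FPKM, 530 loci were higher and 185 lower, against 288 and 345 as deposited. CDC6 was the only member past 2-fold. The other 7 lay between -0.36 (ORC4) and 0.51 (ORC1), with TAH11 at 0.05.

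**Figure D1:**
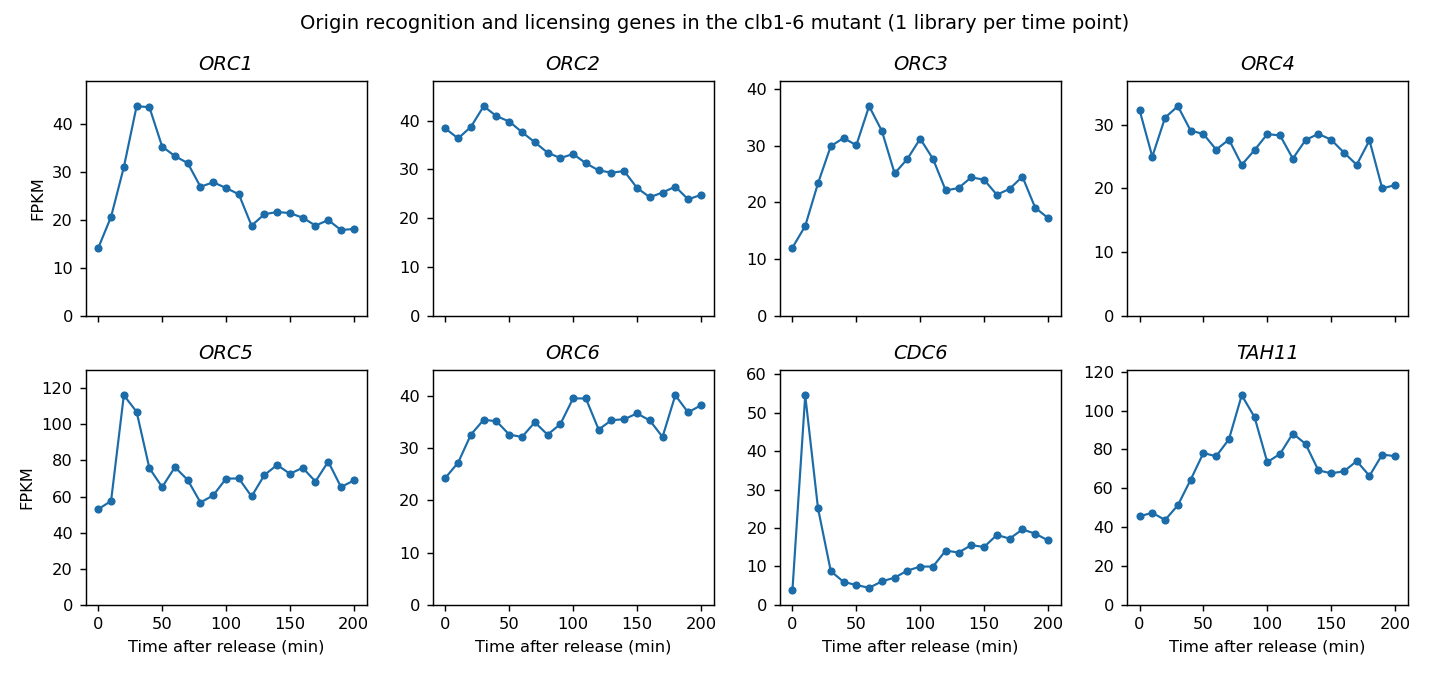
FPKM (vertical axes, each from 0 and scaled to its gene) of the 8 genes against time after release in min; each point is 1 library, so there are no error bars. CDC6 spikes to 54.6 at 10 min and climbs again from 60 min, TAH11 tops out at 108 at 80 min, ORC5 at 116 at 20 min, and ORC1 and ORC3 are lowest at 0 min.

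The late climb of CDC6 passed the test. It averaged 7.29 ± 2.2 FPKM (SD, n = 5 libraries) at 60 to 100 min and 18.1 ± 1.29 (SD, n = 4) at 170 to 200 min, and the windows did not overlap. The difference was 1.24 ± 0.32 (log2, SE; limma, adjusted p = 0.0101), and the adjusted p lay between 0.000661 and 0.0270 over 19 alternative settings, all called. CDC6 was the only member that rose between these windows. ORC1, ORC2 and ORC3 fell, and 22.1% of 6187 loci were called higher and 18.4% lower. With libraries rescaled to one sum the calls over all loci were 1560 higher and 378 lower, against 1367 and 1139. In that setting the median of all loci moved from 0.03 to 0.18, and ORC2 (adjusted p = 0.0579) and ORC3 (0.0700) no longer passed.

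The first pulse window (20 to 40 min) leaves out the 10 min top of CDC6 (54.6 FPKM), so it does not measure the fall from that top. Between this window and 60 to 100 min CDC6 differed by -0.59 ± 0.35 (limma, adjusted p = 0.205), its 3 libraries of 20 to 40 min spanning 25.1 to 5.97 FPKM. The difference was -0.04 without the 20 min library, and -0.99 and called without 40 min (adjusted p = 0.0408). Over the whole course the spline did not call CDC6 (fitted range 1.92, adjusted p = 0.0781). The scatter around the smooth curve was 0.74 for CDC6 (residual SD, log2) and 0.06 to 0.21 for the other 7. Without the 0 min library CDC6 was called (range 3.34, adjusted p = 3.29e-10), as it was without 10 min (1.74, 0.00767) or without both (2.07, 6.28e-08). It was also called with all libraries under a spline of 8 degrees of freedom (2.53, 0.0203) and with one sum of FPKM per library (2.23, 0.0369).

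TAH11 (YJR046W, chromosome X, 522048 to 523862), whose product Cdt1 escorts the helicase to ORC, went up in each library from 20 to 50 min, over which CDC6 went down. Its FPKM in the libraries of 0 to 60 min were 45.6, 47.4, 43.7, 51.2, 64.4, 78.1 and 76.4. The libraries of 70 to 130 min gave 85.2, 108, 96.7, 73.4, 77.7, 88.2 and 82.8, and those of 140 to 200 min 69.2, 67.7, 68.7, 74, 66.4, 77.4 and 76.5. The first 3 libraries were low, 80 and 90 min were highest, and no library after 30 min went back to the level of 0 to 20 min. At 80 min the marker genes URA3, LEU2, TRP1, HIS2 and ADE1 also stood above both neighbouring libraries, and ARG4 did not. ORC1, ORC3, ORC4, ORC5 and ORC6 stood below both. Whether the 80 min top of TAH11 belongs to that library as a whole was not tested.

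TAH11 was the only member that rose from 20 to 40 min (53.1 ± 10.5 FPKM, SD, n = 3) to 60 to 100 min (87.9 ± 14.4, SD, n = 5), and those windows did not overlap. The difference was 0.72 ± 0.14 (log2, SE; limma, adjusted p = 0.00284), called in all 19 alternatives. ORC1, ORC2 and ORC5 fell between these windows, and of all loci 19.3% were called higher and 17.6% lower. With one sum per library the calls were 1045 higher and 496 lower, against 1197 and 1087, and TAH11 was then the only member called. From 60 to 100 min to the end TAH11 differed by -0.24 ± 0.13 (adjusted p = 0.159). By the spline it changed over time (fitted range 1.05, adjusted p = 5.18e-06), close to the minimum range. The range was under it without 80 min (0.97), with a pseudocount of 5 (0.98) and without 0, 10 and 20 min together (0.81).

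The balance between the loading factors therefore swung widely on the FPKM scale. TAH11 stood 11.7 times above CDC6 at 0 min, CDC6 stood 1.15 times above TAH11 at 10 min, and TAH11 was 17.2 times above at 60 min and 4.56 times above at 200 min. The 10 min library was the only one of 21 in which CDC6 exceeded TAH11. It was also the only one in which CDC6 was above ORC6 (2-fold).

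ORC1 (YML065W, chromosome XIII, 142210 to 144954), an ATPase subunit beside which Cdc6 docks, gave 14.1, 20.6, 31, 43.7, 43.5, 35.3 and 33.3 FPKM in the libraries of 0 to 60 min. The libraries of 70 to 130 min gave 31.8, 26.9, 27.8, 26.6, 25.3, 18.8 and 21.2, and those of 140 to 200 min 21.6, 21.4, 20.4, 18.8, 19.9, 17.9 and 18.1. The libraries of 30 and 40 min were highest and the 0 min library lowest. ORC1 changed over time (fitted range 1.56, limma, adjusted p = 2.93e-08), called in all 32 alternatives. It fell from the first pulse (39.4 ± 7.28 FPKM, SD, n = 3) to the middle of the course (29.3 ± 3.06, SD, n = 5) by 0.40 on the log2 scale (SE 0.12, adjusted p = 0.0195), and from there to the end (18.7 ± 0.93, SD, n = 4) by 0.62 (SE 0.11, adjusted p = 0.00116). The first of these calls ended without the 30 min library (adjusted p = 0.104), without 40 min (0.0776), with a middle window of 60 to 80 min or with one sum of FPKM per library (0.0904 in both). The second held in all 19 alternatives.

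ORC3 (YLL004W, chromosome XII, 141073 to 142923), a structural subunit, had a similar course with a later top. Its FPKM at 0 to 60 min were 12, 15.8, 23.4, 29.9, 31.4, 30.1 and 37, those at 70 to 130 min 32.6, 25.1, 27.7, 31.2, 27.7, 22.1 and 22.6, and those at 140 to 200 min 24.4, 24, 21.4, 22.4, 24.6, 19.1 and 17.3. The 60 min library was highest and the 0 min library lowest. ORC3 changed over time (fitted range 1.42, limma, adjusted p = 2.52e-06), though the range was 0.998 without 0 min, 0.92 without 0 and 10 min and 0.89 without 0, 10 and 20 min, all under the minimum. Its level at 60 to 100 min (30.7 ± 4.58 FPKM, SD, n = 5) did not overlap that at the end (20.8 ± 3.27, SD, n = 4), a difference of -0.54 ± 0.13 (log2, SE; adjusted p = 0.00794), which was -0.39 and not called with one sum of FPKM per library (adjusted p = 0.0700).

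ORC2 (YBR060C, chromosome II, 360652 to 362514), a subunit phosphorylated by B-type cyclin kinase, drifted down after 30 min. Its FPKM at 0 to 60 min were 38.4, 36.3, 38.7, 42.9, 40.9, 39.8 and 37.6, those at 70 to 130 min 35.5, 33.4, 32.3, 33.1, 31.2, 29.8 and 29.3, and those at 140 to 200 min 29.6, 26.2, 24.3, 25.2, 26.5, 23.8 and 24.8. The highest library was that of 30 min and the lowest that of 190 min. The 3 window comparisons each called it lower: by -0.24 ± 0.07 (adjusted p = 0.0183) from the first pulse to 60 to 100 min, by -0.44 ± 0.06 (adjusted p = 0.000445) from there to the end, and by -0.44 ± 0.06 (adjusted p = 2.06e-05) from 10 to 100 min to 110 to 200 min. In none of the 3 did its windows overlap. The first call ended without 30 min (adjusted p = 0.0952), with a middle window of 60 to 80 min (0.0857) or with one sum of FPKM per library (0.347), and the second also ended with one sum (-0.29, adjusted p = 0.0579). The fitted range was 0.71, under the minimum, at an adjusted p of 7.72e-08.

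ORC5 (YNL261W, chromosome XIV, 155100 to 156539), another ATPase-fold subunit, had an early pulse. Its FPKM at 0 to 60 min were 53, 57.5, 116, 107, 75.7, 65.2 and 76.3, and from 70 min on they lay between 56.7 and 79.4. The libraries of 20 and 30 min stood above all others. Its step from 10 to 20 min, 1 on the log2 scale, was the largest single step of any ORC gene. It fell from the first pulse (99.6 ± 21.2 FPKM, SD, n = 3) to 60 to 100 min (66.5 ± 7.82, SD, n = 5) by 0.56 on the log2 scale (SE 0.14, adjusted p = 0.0087), though the 40 min library lay inside the later range and the call ended with one sum per library (adjusted p = 0.0676). The spline gave a range of 0.84 with 6 degrees of freedom (adjusted p = 0.0337, under the minimum range), 1.05 with 8 (called, adjusted p = 0.024) and 0.43 with 4 (adjusted p = 0.248), and 0.60 without 30 min (adjusted p = 0.289).

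ORC4 and ORC6 varied least. ORC4 (YPR162C, chromosome XVI, 866715 to 868304), an ATPase-fold subunit, ranged from 20 FPKM at 190 min to 32.9 at 30 min, with a median of 27.6. ORC6 (YHR118C, chromosome VIII, 344321 to 345628), the subunit that lies outside the ring and is also a target of B-type cyclin kinase, ranged from 24.3 at 0 min to 40.1 at 180 min, with a median of 35.2. Neither passed any of the window tests: ORC6 differed by 0.11 ± 0.06 between 10 to 100 min and 110 to 200 min (adjusted p = 0.118), and ORC4 by -0.13 ± 0.07 (adjusted p = 0.146). A pair of settings called ORC6 higher in the late window, that without 100 min (0.13, adjusted p = 0.0436) and that with one sum per library (0.32, adjusted p = 0.00762). ORC4 was called lower at the end than at 60 to 100 min without the 180 min library (-0.29, adjusted p = 0.0214). Their standard deviations over the 21 times on the log2 scale, 0.18 for ORC4 and 0.17 for ORC6, were larger than in 14.8% and 11.7% of 6198 loci. CDC6 stood at 0.85, above 94.4% of loci, and the median locus at 0.32.

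Counted over the 8 genes, the spline called 3 (ORC1, ORC3 and TAH11), against 44.8% of 6198 loci, so the share of members called was near that of all loci. Their median fitted range was 0.94 and that of all loci 0.99. Between 10 to 100 min and 110 to 200 min 3 members fell (ORC1 by 0.61, ORC2 by 0.44 and ORC3 by 0.30 on the log2 scale; adjusted p = 0.000148, 2.06e-05 and 0.0348) and none rose, against 22.7% and 25.9% of 6194 loci. CDC6 differed by 0.63 ± 0.32 (adjusted p = 0.109) and passed once 10 min (0.89, adjusted p = 0.00177) or 20 min (0.77, 0.0452) was left out. The call of ORC3 ended on leaving out any 1 of 30 to 70, 100, 160, 190 or 200 min (adjusted p = 0.0523 to 0.0682). With one sum per library the median of all loci in this comparison moved from 0.04 to 0.24, 2784 loci were called higher and 529 lower, against 1604 and 1409, and CDC6 and ORC6 were called higher while ORC3 lost its call. From 0 min to the mean of 20 to 40 min, 3 members were at least 2-fold higher (ORC1 by 1.40, CDC6 by 1.31 and ORC3 by 1.16 on the log2 scale) and none 2-fold lower, against 11% and 19.2% of 6088 loci. With a pseudocount of 5 ORC1 alone passed 2-fold, and with one sum per library ORC5 passed as well (1.07).

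**Figure D2:**
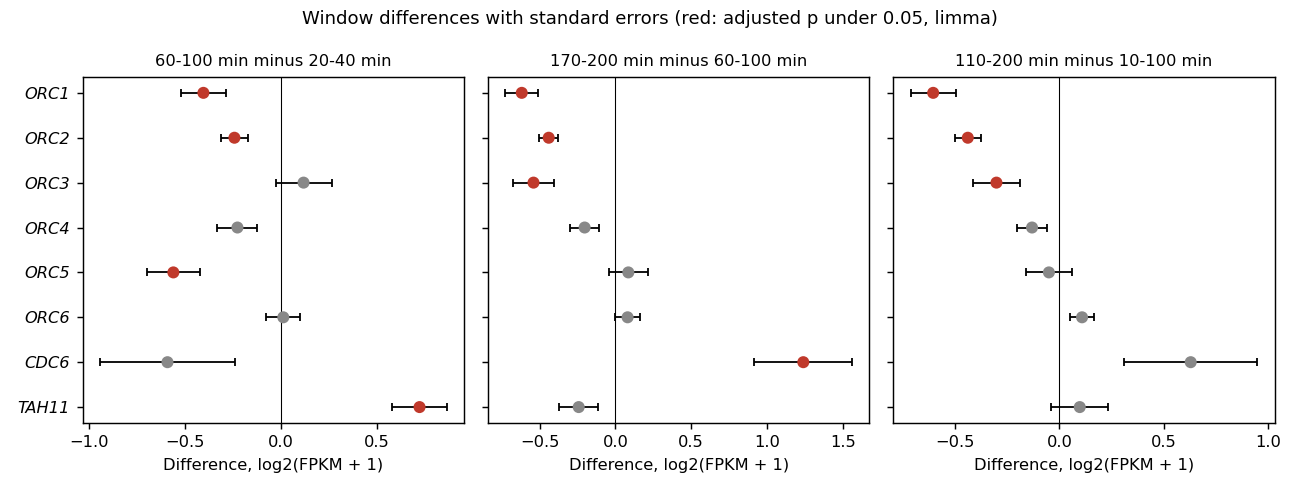
Difference in log2(FPKM + 1) between windows of libraries for each gene (points) with its standard error from limma (bars); red points have an adjusted p under 0.05. CDC6 at 1.24 in the middle panel and TAH11 at 0.72 in the left panel are the only red points above 0, and ORC1 and ORC2 are red and below 0 in all 3 panels.

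The order of mean levels over the 21 libraries, each with the SD over times, was TAH11 (72.3 ± 16.2 FPKM), ORC5 (72.2 ± 15), ORC6 (34.5 ± 3.81), ORC2 (32.4 ± 5.98), ORC4 (26.9 ± 3.32), ORC1 (25.6 ± 8.22), ORC3 (24.9 ± 6.05) and CDC6 (14.2 ± 10.9). ORC5 was above ORC6 in 21 of 21 libraries, and ORC3 above CDC6 in 19. Other neighbours in this order changed places over the course. TAH11 was above ORC5 in 12 libraries, ORC6 above ORC2 in 12, ORC4 above ORC1 in 14 and ORC1 above ORC3 in 9. ORC2 was above ORC6 in each library from 0 to 80 min and below it in each from 90 min on. ORC1 was above ORC4 only from 30 to 90 min. The SD is a spread over times and does not measure whether genes differed. Rescaling to one sum left the order of means as it was.

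The 6 ORC proteins occur once each in the complex, but their transcripts were unequal throughout. ORC5 was highest of the 6 in every library. It made up 42.6% of their summed FPKM at 20 min and 28.2% at 50 min. ORC3 was lowest from 0 to 30 min, ORC4 from 40 to 90 min, ORC1 from 100 to 190 min and ORC3 again at 200 min. Between the first and last library the share of ORC2 moved from 22% to 13.2% and that of ORC6 from 14% to 20.4%. ORC1 took 8.13%, 17% and 9.64% of the sum at 0, 40 and 200 min. ORC6 was 1.72 times ORC1 at 0 min, 0.809 times at 40 min and 2.11 times at 200 min.

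**Figure D3:**
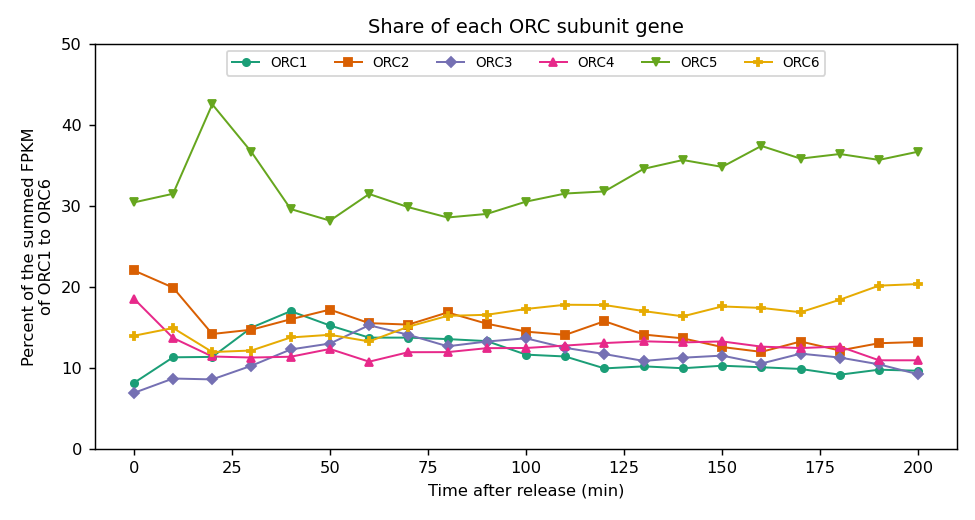
Percent of the summed FPKM of ORC1 to ORC6 taken by each subunit gene (vertical axis) against time after release in min; each point is 1 library. ORC5 leads in every library with a top of 42.6% at 20 min, ORC2 drifts down from 22% to 13.2% and ORC6 rises from 14% to 20.4%.

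The members did not share 1 shape. Of their 28 pairs 18 had a Pearson correlation above 0 over the 21 times, and 1 was above 0.7, that of ORC1 and ORC3 (0.811). ORC1 and ORC2 stood at 0.698 over all times and 0.949 from 20 min on. CDC6 was below 0 with ORC1, ORC2, ORC3 and ORC4 (-0.348 to -0.476), and TAH11 below 0 with ORC4 (-0.516), ORC5 (-0.423; -0.944 from 20 min on), ORC2 (-0.363) and CDC6 (-0.296). All points share the same 21 libraries and neighbouring times are dependent, so these values are descriptions.

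The MCM genes, whose products are the cargo of licensing, shared the 10 min top of CDC6. All 6 were highest at 10 min, as were 5.2% of 6198 loci. At 0, 10, 20, 60 and 200 min MCM7 gave 22.7, 54.8, 27.9, 5.27 and 6.99 FPKM, MCM5 28.9, 60, 33.2, 9.56 and 13.5, and MCM2 17.7, 42.8, 34, 9.75 and 14.9. At least 2-fold higher at 10 than at 0 min were 5 of the 6 (MCM6 by 1.31, MCM7 by 1.23, MCM2 by 1.23, MCM3 and MCM5 by 1.03 on the log2 scale), with MCM4 at 0.76, against 4.73% of all loci. All 6 were with one sum per library. The first pulse window of 20 to 40 min leaves out the 10 min top of the MCM genes. From it to 60 to 100 min 2 were called lower, against 17.6% of all loci. They were MCM7, by 1.17 (limma, adjusted p = 0.00615), and MCM5, by 1.02 (adjusted p = 0.00394). MCM2, MCM3, MCM4 and MCM6, not called, gave 42.8, 51.2, 48.3 and 32.2 FPKM at 10 min. They averaged 10.5, 8.4, 16.8 and 12.9 at 60 to 100 min. From there to the end none of the 6 passed, with a median of 0.10. MCM5 was at 9.28 ± 0.36 FPKM (SD, n = 5) and then 13.2 ± 0.73 (SD, n = 4), a difference of 0.47 (limma, adjusted p = 0.0756), and MCM2 at 10.5 ± 0.73 (SD, n = 5) and then 14 ± 0.65 (SD, n = 4), a difference of 0.38 (adjusted p = 0.243). The windows of MCM5 and those of MCM2 did not overlap, though neither gene passed. How many of all loci have windows without overlap was not counted. Whether CDC6 differed from them in the late climb was not tested. Over all times CDC6 correlated with MCM2 at 0.726, 33rd of 5187 genes, and with MCM7 at 0.368.

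Most of the firing genes, which act after licensing, were highest 10 min later. Of 12 genes of helicase activation and firing 10 were highest at 20 min, as were 10.8% of all loci, with MCM10 highest at 110 min and SLD7 at 0 min. CDC45, the helicase cofactor, gave 6.6, 36.9, 104, 24.9 and 45.1 FPKM at 0, 10, 20, 80 and 200 min. From the first pulse to 60 to 100 min 9 of the 12 fell, led by CDC45 (-1.19), the kinase target SLD2 (-1.16) and the GINS subunit genes PSF1 (-0.96) and SLD5 (-0.72), against 17.6% of all loci lower. These 4 and PSF3 were the 5 that fell with one sum per library. To the end of the course CDC45 (0.57, adjusted p = 0.0391) and PSF3 (0.27, adjusted p = 0.0343) rose and SLD3 fell by 0.35 (adjusted p = 0.0104), against 22.1% of all loci higher and 18.4% lower. SLD3 lost its call with one sum per library (adjusted p = 0.277), and only CDC45 rose with libraries scaled by the median ratio. In the 300 bases before the start codon, the MCB was in 4 of these 12 promoters, in none of the 6 MCM promoters and in CDC6. In 600 bases it was in 5 of the 12 and in 1 MCM promoter, that of MCM5, against 6.33% of promoters.

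**Figure D4:**
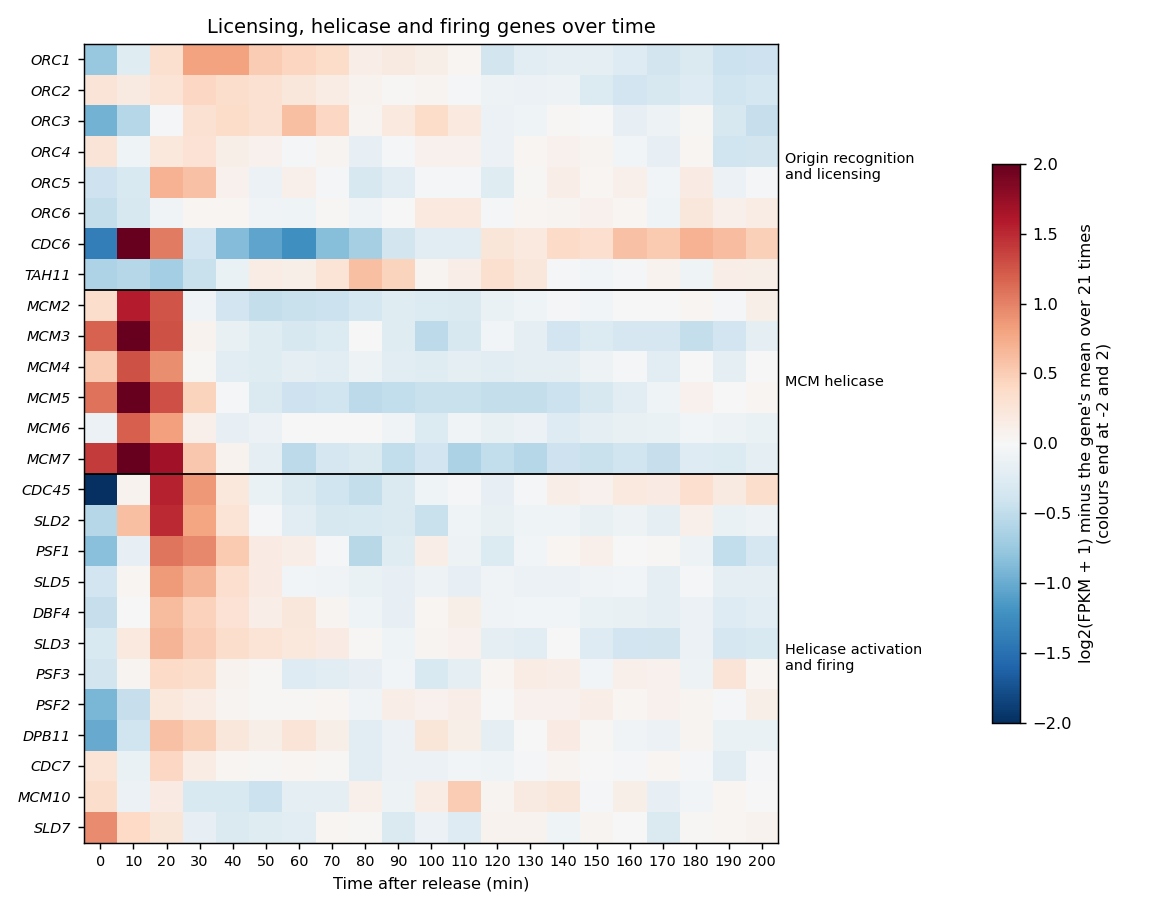
log2(FPKM + 1) minus each gene's mean over the 21 times (colour, ending at -2 and 2) for the 8 origin recognition and licensing genes, 6 MCM genes and 12 genes of helicase activation and firing (rows) against time after release in min (columns); each cell is 1 library. CDC6 and the 6 MCM genes are darkest red at 10 min, 10 of 12 firing genes at 20 min, ORC1 at 30 min and TAH11 at 80 min, and CDC6 turns from deep blue at 60 min to red at the end.

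Other lists around licensing are given for their counts, and both window comparisons used the same 5 libraries of 60 to 100 min. As background 19.3% of all loci rose and 17.6% fell to the middle window, and 22.1% rose and 18.4% fell from there to the end. Of 8 genes of Cdc6 turnover (the SCF ligase, the Cdk inhibitor SIC1 and CDC28 with its partner CKS1), 3 rose from the first pulse to 60 to 100 min, the scaffold CDC53 (0.82), SIC1 (0.74) and the RING subunit HRT1 (0.69). To the end, 3 rose, SIC1 (0.64), HRT1 (0.48) and CDC28 (0.29), and 2 fell, among them the ubiquitin-conjugating enzyme CDC34 by 0.24 (log2; adjusted p = 0.0201). CDC4, the receptor that binds Cdc6, lay between 28.8 and 37.9 FPKM and was the other that fell, by 0.21 (adjusted p = 0.0156). In the one-sum setting neither CDC34 (adjusted p = 0.597) nor CDC4 (0.741) was called. Of 16 G1/S genes under MBF 15 fell to the middle window and 12 rose to the end, led in both by CLB6 (-3.60 and 2.33), which is one of the loci disrupted in this strain, and POL30 (-2.56 and 1.97). The counts were also 15 and 12 with one sum per library, and with scaling by the median ratio 15 and 10. Of 8 genes under Mcm1 and the early cell cycle box 5 fell to the middle window, led by SWI4 (-1.49) and MCM7 (-1.17), and 2 fell to the end, FAR1 by 0.73 and STE2 by 0.47 on the log2 scale. STE2 was not called at the end with one sum per library (adjusted p = 0.173).

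SIR3, which arose from ORC1 by duplication and encodes a silencing protein of heterochromatin, went the other way from ORC1 late in the course. It gave 21.6, 14.8, 22.3, 15.4 and 31.6 FPKM at 0, 10, 30, 80 and 200 min, and rose from 60 to 100 min to the end by 0.79 (log2; adjusted p = 0.000117), where ORC1 fell by 0.62. Of the 7 silencing partners of ORC tested, SIR3 rose and RAP1 fell by 0.83 (adjusted p = 0.000435) in that comparison. From the first pulse to the middle window 4 fell, ABF1 by 0.85, RAP1 by 0.41, SIR3 by 0.31 and SIR1, which binds Orc1 at silencers, by 0.28, and with one sum per library ABF1 alone did.

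For 3 members the gene just upstream, within 700 bases, had a correlation above 0.8 with the member. CDC6 and ELO1, a fatty acid elongase gene, are transcribed away from each other from start codons 555 bases apart. ELO1 gave 69.9, 181, 311, 121, 52.1, 122 and 228 FPKM at 0, 10, 20, 30, 60, 100 and 200 min, so its early top came 1 library after that of CDC6 and its low and late climb fell at the same times. Their correlation was 0.872 over 21 times, the 4th highest of 5187 genes for CDC6, and 0.986, the highest of those genes, from 20 min on. A locus listed as YJL195C, whose number falls between those of CDC6 and ELO1 and which is not in the R64 annotation used, lay between 0.339 and 2.85 FPKM.

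TAH11 and SSC1, the gene of the mitochondrial Hsp70, are likewise divergent, with 445 bases between them. SSC1 gave 287, 175, 594, 396, 507 and 433 FPKM at 0, 20, 80, 100, 120 and 200 min. Both genes were lowest at 20 min and highest at 80 min, with a second high at 120 min, and their correlation was 0.855, 49th of 5187. Of the marker genes, URA3, LEU2, TRP1, HIS2 and ADE1 also stood above both neighbouring libraries at 80 and at 120 min, and ARG4 did not. The summed FPKM of ORC1 to ORC6 stood below its neighbouring libraries at both times. Whether these highs belong to the 80 and 120 min libraries as a whole was not tested. ORC5 lies 219 bases downstream of POL2, the catalytic subunit of DNA polymerase epsilon, on the same strand. POL2 gave 7.94, 60.8, 13.4 and 23.6 FPKM at 0, 20, 80 and 200 min, and its correlation with ORC5 was 0.934, 3rd of 5187. Whether reads or transcripts that run from one gene into the next take part was not tested.

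As background, 785 adjacent divergent pairs no more than 700 bases apart had a median correlation of 0.311, with 12.9% above 0.8, and 1794 pairs on the same strand a median of 0.063, with 6.52% above 0.8. The other upstream neighbours of members ranged from -0.448 (SMA2, upstream of ORC1, between 0.064 and 1.85 FPKM) to 0.87 (TRM7, 2272 bases upstream of ORC2). In the R64 annotation no other gene overlapped a member.

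**Figure D5:**
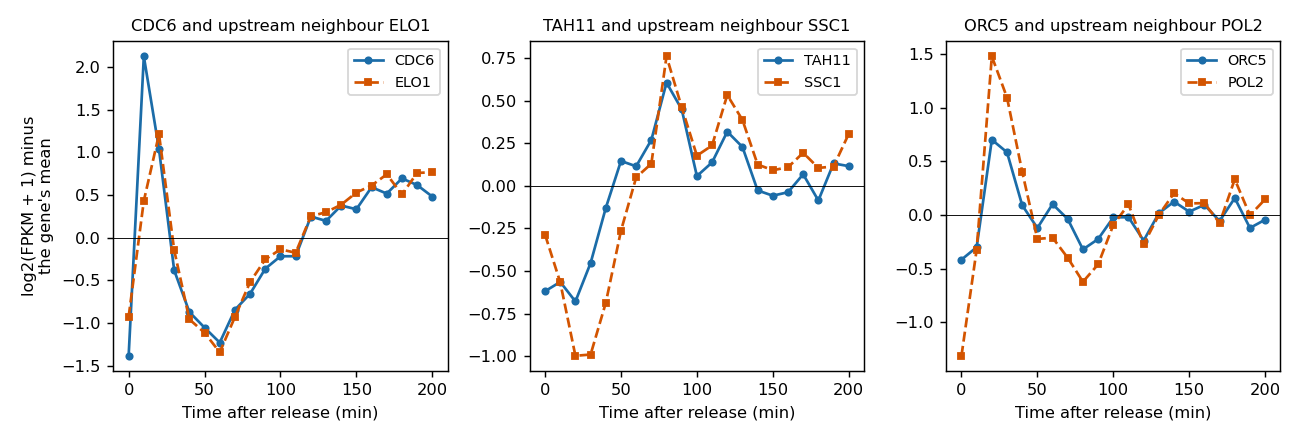
log2(FPKM + 1) minus each gene's mean over 21 times for 3 members (circles, solid) and the gene just upstream (squares, dashed) against time after release in min; each point is 1 library. CDC6 tops at 10 min and ELO1 at 20 min and they run together from there, TAH11 and SSC1 both top at 80 min, and ORC5 and POL2 both top at 20 min.

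Among 5187 other genes of at least 300 bp and a mean of at least 5 FPKM, those most like each member were found by the correlation of log2(FPKM + 1) over 21 times. For CDC6 they were the siderophore transporter gene ARN1 (0.948), MSA2 (0.893), whose product works with the G1 transcription factors, and HLR1 (0.884), and 14 genes were above 0.8. For TAH11 they were YJR015W (0.965), PKR1 (0.961) and SUR7 (0.957), with 120 above 0.8. For ORC1 they were MDM1 (0.964), RRN9 (0.963) and YPK3 (0.958), and for ORC2 the translation factor gene TIF4631 (0.966), ARP4 (0.965) and YGL101W (0.957), with 373 and 383 above 0.8. ORC3 was most like INP2 (0.958), BET5 (0.952) and TOF2 (0.95), and ORC5 most like the translation factor gene GCD6 (0.955), CNM67 (0.939) and POL2. ORC6 was most like IML1 (0.925), the condensin gene SMC4 (0.92) and SPT7 (0.917), and ORC4 most like YBR259W (0.935), YPR147C (0.89) and YOL098C (0.878), with 116 and 39 above 0.8. From 20 min on, ORC6 stood at 0.751 with IML1, 0.761 with SMC4 and 0.815 with SPT7, and CDC6 at 0.781 with HLR1. The other pairs named here lay between 0.874 and 0.97 from 20 min on. CDC6 had the fewest genes of like shape of the 8 and ORC2 the most.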

How the data were processed

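The deposited table used here holds 1 value per locus for 21 mRNA libraries of Saccharomyces cerevisiae, 1 library at each time point. Per the labels' protocols the libraries came from a stranded mRNA kit. The submitters' processing notes name genome build R64 and the tools STAR, Cufflinks and Cuffnorm, without versions. The unit was inferred from the values and from Cuffnorm: the authors deposited FPKM with 1 added to each value, and that 1 was subtracted. Cuffnorm may have divided reads shared by similar genes. Read counts are not given, so the depth behind each value is unknown and no counting interval is given. A second table, with 50 columns of wild-type cells, comes from a different series and was left out, so no shape is compared with wild type.

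All tests used limma 3.58.1 (R 4.3.3) on log2(FPKM + 1), its variances moderated along a trend with the mean. P-values were adjusted by Benjamini-Hochberg over all loci with a mean of at least 1 FPKM in the libraries of the fit, and 0.05 was the threshold. Change over time was fitted by a cubic spline with 6 degrees of freedom and called with a fitted range of at least 1. Time windows were compared as groups of libraries. Whether windows overlap is given for single genes only, and the share of all loci without overlap was not counted. With 1 library at 0 min, differences from it have no test, and 2-fold counted as called. Libraries of neighbouring times come from the same culture and are dependent, so the p-values are too small. Scripts were tested on simulated data.

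Promoters were read from the R64 reference genome of RefSeq. Of 7126 loci 6202 (87%) matched its annotation by name. Protein sequences were not used here. Some gene lists and 1 promoter motif are not reported here. Named were all 8 members, up to 4 genes per list and comparison with the largest effect past the threshold, the 3 genes most like each member, and the nearest gene on each side of it. CDC4 and YJL195C were named outside this rule, after their values were seen. The members, lists and windows were chosen with earlier results of these data known. The comparison of 10 with 0 min, the ranking of neighbours and adjacent gene pairs, the fit without 0, 10 and 20 min, the list counts under other scalings and the heat shock motif were added after the values were seen. Alternatives changed the pseudocount, the filter, the scaling, the spline, the windows and the libraries.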

Additional observations from a re-analysis of the deposited data

How the results depend on the processing

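No result changed sign with a call in any alternative, and 831 of 880 values of single members under an alternative kept their side of the threshold, 29 lost it and 20 gained it. Counts of calls that moved by over 1.5 times were as follows, and the cause was not tested unless the setting itself gives it. For change over time 3 members and 2775 loci were called, but 5 members with a spline of 8 degrees of freedom, 7 members and 5127 loci with no minimum range, 1734 loci without 0 and 10 min and 1440 without 0, 10 and 20 min. With one sum of FPKM per library, the late against the early window gave 2 members higher, with 2784 loci higher and 529 lower. In that setting the middle window against the first pulse gave 1 member, 0 of them lower, and 496 loci lower. The end against the middle window then gave 2 members, 1 of them lower, and 378 loci lower, and 10 against 0 min gave 530 loci higher and 185 lower. With an early window from 20 min, 1 member was higher late. With a middle window of 60 to 80 min, 2 members were called against the first pulse, 1 of them lower. With a pseudocount of 5, 1 member was 2-fold higher at 20 to 40 min than at 0 min, and 180 loci at 10 min. Leaving out 1 library at a time gave 2 to 4 members for change over time (1910 to 2842 loci), 2 to 4 for late against early (0 to 1 higher, 2 to 3 lower), 2 to 4 for the middle window against the first pulse (1 to 3 lower; 1374 to 2459 loci, 689 to 1284 higher and 685 to 1175 lower, lowest without 30 min) and 4 to 5 for the end against the middle (3 to 4 lower). The median of all loci moved with one sum per library to 0.24 (late against early), 0.18 (end against middle), 0.10 (20 to 40 against 0 min) and 0.18 (10 against 0 min).

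No paired analysis was possible because each time point has 1 library and the labels number no replicates. With no replicates and no read counts, a value in 1 library, such as CDC6 at 10 min, has no error of its own.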
